A study of Mus musculus with 9 samples.

Results

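The respiratory chain of liver mitochondria was described here through the mRNAs of its subunits, encoded in the mitochondrial and the nuclear genome. Members were the protein-coding rows of the gene count table whose symbol in the GENCODE M21 annotation names a subunit of complexes I to V. They were the mt-Nd, mt-Co, mt-Atp and mt-Cytb genes, the Ndufa, Ndufb, Ndufc, Ndufs and Ndufv genes without the Ndufaf assembly factors, Sdha to Sdhd, and the Uqcr, Cox4 to Cox8 and Atp5 genes. The rule used names only and found 99 of 54393 gene rows. Of these, 13 were mitochondrially encoded (7 in complex I, 1 in complex III, 3 in complex IV and 2 in complex V). The other 86 rows were nuclear (38 in complex I, 4 in II, 8 in III, 18 in IV and 18 in V), with Atp5o on 2 of them.

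There were 4 liver libraries labelled as from mice given antibiotics, with replicate numbers 1, 2, 3 and 5. Another 5 liver libraries, with numbers 1 to 5, were labelled as from controls given none. The antibiotics are described as not absorbed from the gut, and the study set microbiota-depleted against conventional mice. Both groups carried the strain label C56Bl/6j and the diet AIN-76a; the sources used here give neither the compounds, dose or duration nor the age and sex of the animals. Whether every library is a separate animal is not said in the labels, so p-values measure the spread between libraries.

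Respiratory complexes I, III and IV move electrons from NADH to oxygen and pump protons across the inner membrane, complex II feeds in electrons from succinate, and complex V, the ATP synthase, uses the proton gradient to make ATP. The mitochondrial genome encodes hydrophobic core subunits of complexes I, III, IV and V, and all complex II subunits are nuclear. Mitochondrial mRNAs are cut from long shared precursor transcripts, so they are not independent of each other, and those of the heavy strand carry poly(A) tails and appear in poly(A)-selected libraries. Hepatocytes are rich in mitochondria.

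Part of the mitochondrial genome has a nearly identical copy in the nuclear genome, and this bears on how the counts can be read. On chromosome 1, at chr1:24611535-24616197 (GRCm38), 7 annotated pseudogenes match mt-Nd4, mt-Nd4l, mt-Nd3, mt-Co3, mt-Atp6, mt-Co2 and mt-Co1 at 99.7% to 100% identity over the aligned stretch. The following 60 bases of the coding sequence of mt-Co2 (chrM:7457-7516, plus strand; bases 445 to 504 of its single exon) are shown because 2 pseudogenes cover them. In the copy on chromosome 1, Gm28661 (chr1:24614885-24615565), the letters are the same. In an older copy on chromosome 2, Gm13341 (chr2:22587291-22587962), 6 bases of the stretch differ, in capitals, and 16 over the whole alignment, gaps not counted.
mt-Co2: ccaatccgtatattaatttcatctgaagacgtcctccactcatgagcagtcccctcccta
Gm28661: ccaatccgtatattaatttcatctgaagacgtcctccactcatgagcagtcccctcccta
Gm13341: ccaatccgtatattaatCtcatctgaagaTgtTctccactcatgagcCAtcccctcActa

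A read from these stretches cannot be assigned to mt-Co2 or Gm28661 by sequence, and the deposited table divided such reads between them. Over all libraries mt-Co2 held 311750 counts and Gm28661 1565262, whereas the divergent Gm13341 held 284. The mitochondrial gene was given 16.6% of the counts of mt-Co2 and its copies, 9.86% for mt-Nd3, 41.2% for mt-Co3, 68.1% for mt-Atp6, 77.1% for mt-Co1 and 96.8% for mt-Nd4l. The division varied between libraries. For mt-Co3 it was 44.0%, 54.2%, 53.1% and 35.9% in antibiotics libraries 1, 2, 3 and 5, against 42.0%, 35.8%, 48.0%, 37.1% and 31.7% in control libraries 1 to 5. For mt-Atp6 it reached 86.1% in antibiotics library 2 and lay between 62.4% and 71.0% in the other 8. Mitochondrial members that share reads are therefore also given with near copies added, an alternative chosen after the data were seen.

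**Figure D1:**
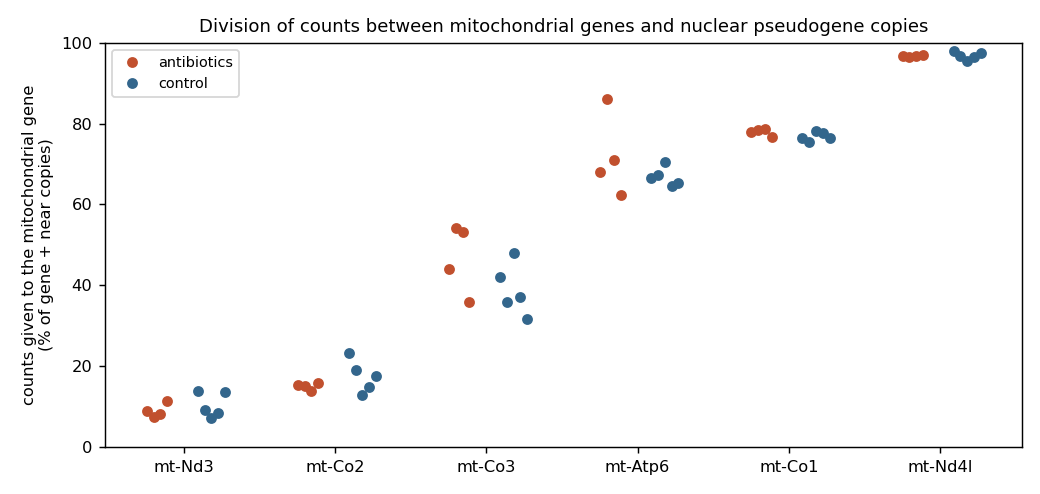
Percent of counts given to each mitochondrial gene out of the gene and its near copies (vertical axis), with 1 point per library, antibiotics left of control for each of 6 genes. mt-Nd3 and mt-Co2 kept under 24% of the counts in every library, and the share of mt-Co3 ranged from 31.7% to 54.2%.

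Totals ran from 15422891 to 59179622 counts per library. Antibiotics libraries 1, 2 and 3 were the shallowest, at 15422891 to 18504624 counts, and antibiotics library 5 the deepest. Summed hepatocyte markers (6 of 6 tested, 0 called) were 83488 to 94393 CPM (counts scaled to library size, with TMM factors) in antibiotics livers and 82965 to 99055 CPM in controls. The sum is mostly Alb; of the single markers, Cyp2e1 (log2 fold change 0.53, edgeR adjusted p = 0.0661) and Cps1 (0.40, edgeR adjusted p = 0.208) were higher at an unadjusted p under 0.05. Muscle markers, which accompany muscle-type subunit isoforms, reached at most 0.111 CPM in sum. For comparison with these marker counts, edgeR called 2.68% of all tested genes, and 18.5% had an unadjusted p under 0.05. Of the markers tested for Kupffer (5), endothelial (5), stellate (5), bile duct (5), blood (5) and adipose cells (2), edgeR called 0, with 1 blood gene under an unadjusted p of 0.05. In that order, the list medians of the log2 fold change were -0.36, -0.06, 0.00, 0.25, 0.25 and 0.69. Summed Kupffer markers were 131 to 160 CPM in antibiotics livers and 129 to 355 CPM in controls, and control library 2 had the highest level of each. Elovl3, listed for brown fat and also a known liver gene, fell (log2 fold change -0.72, edgeR adjusted p = 0.0388). It was the only 1 of 3 brown fat markers tested, as Ucp1 and Cidea were left out by the filter on low counts. Control library 3 stood apart for the members: it was the lowest of the 9 libraries for 62 of the 80 nuclear members tested and had the highest level of mt-Nd2. As deposited, control library 5 was the lowest for 7 of the 13 mitochondrial members and the highest for 32 of the 80 nuclear ones. A test was possible for 93 members; the 6 left out by the filter on low counts were Cox4i2, Cox6a2, Cox6b2, Cox7b2, Cox8b and Cox8c.

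No subunit passed the test. With edgeR's quasi-likelihood test and Benjamini-Hochberg adjustment over 14873 genes, 0 of 13 mitochondrial and 0 of 80 nuclear members reached an adjusted p under 0.05, where 2.68% of all tested genes were called (1.63% higher and 1.05% lower with antibiotics). DESeq2, which called 6.56% of all genes, and limma-voom, which called 2.78%, also called 0 members. At an unadjusted p under 0.05, 4 mitochondrial members (mt-Atp8, mt-Co3, mt-Atp6 and mt-Cytb) and 3 nuclear ones (Atp5s, Ndufb6 and Ndufc2) were higher and 1 nuclear member, Atp5g2, was lower, in all 8 of 93, where 18.5% of all genes were under it (9.6% higher and 8.87% lower). The 2 groups of libraries did not overlap for 1 member, Atp5s, where 8.88% of all genes did not overlap (4.59% higher and 4.29% lower).

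The 2 genomes differed in where their estimates lay. The median log2 fold change (antibiotics over control) was 0.32 over the 13 mitochondrial members, which ranged from 0.02 to 0.65. Over the 80 nuclear members it was 0.03, from -0.94 to 0.50, and over all tested genes -0.01. An estimate above 0 was found for 13 of 13 mitochondrial members and 53 of 80 nuclear ones, against 48.6% of all tested genes. By complex, the nuclear medians were 0.02 in I, 0.05 in II, 0.03 in III, 0.04 in IV and 0.02 in V; the mitochondrial ones were 0.32 in I, 0.32 in III, 0.20 in IV and 0.54 in V. With near copies added, the mitochondrial medians were 0.33, 0.32, 0.22 and 0.48 for the same complexes. The nuclear median was -0.01 without control library 3, so its sign is not settled. The mitochondrial median was 0.43 both without control library 3 and without antibiotics library 5. Other fits with a library left out lowered mitochondrial estimates. Single values ran from 0.24 to 0.40 for mt-Cytb, 0.25 to 0.43 for mt-Nd4 and 0.13 to 0.32 for mt-Nd1.

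**Figure D2:**
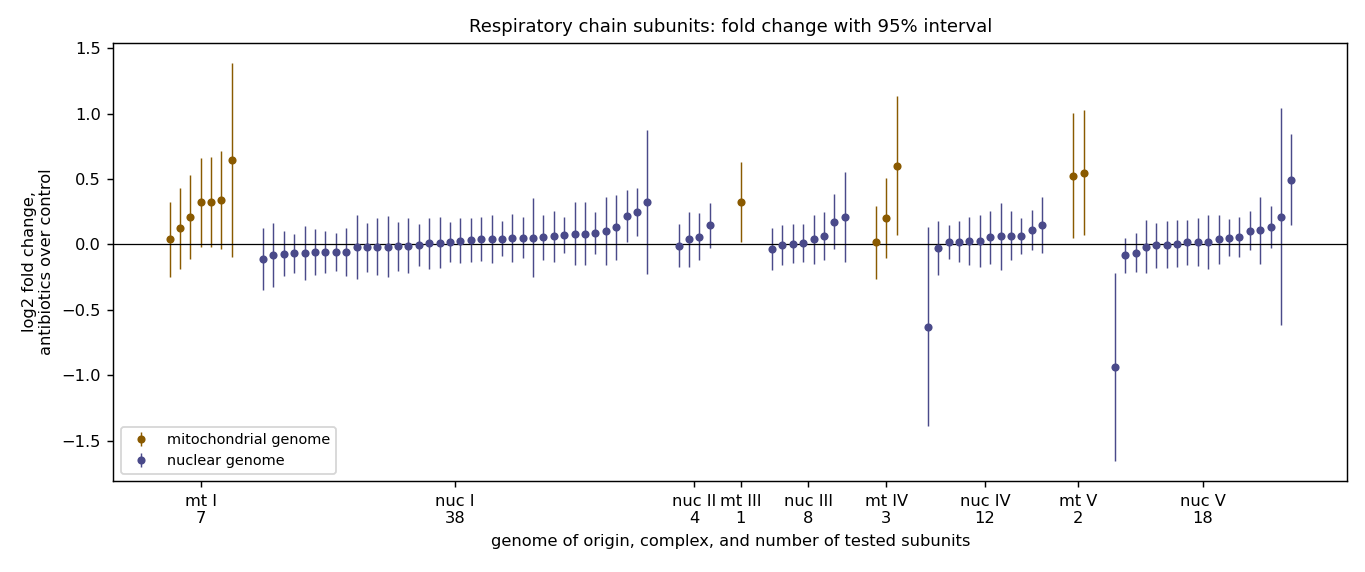
Log2 fold change of each of the 93 tested subunits, antibiotics over control, with 95% intervals, ordered by genome of origin (mt or nuc) and complex. The 13 mitochondrial estimates all lie above 0 with wide intervals, and the nuclear estimates crowd around 0 apart from weakly expressed genes.

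Mitochondrially encoded mRNAs made up 6.37%, 7.35%, 7.08% and 5.19% of all counts in antibiotics libraries 1, 2, 3 and 5, against 5.18%, 4.76%, 6.55%, 5.72% and 4.34% in control libraries 1 to 5. With near copies added, they were 8.33%, 9.22%, 9.09% and 6.95% in antibiotics livers and 6.76%, 6.33%, 8.48%, 7.56% and 5.87% in control livers (8.40% ± 1.04, SD, n = 4, against 7.0% ± 1.04, SD, n = 5). The groups overlapped: antibiotics library 5 lay among the controls, and control library 3 lay above antibiotics libraries 1 and 5. The 3 shallowest libraries, all with antibiotics, held 3 of the 4 highest shares in both readings of the counts. The parts of depth and of RNA quality in this were not tested. In bulk liver, a change in the share of mitochondria-rich cells and a change in RNA per cell cannot be told apart.

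Nuclear subunits together took 1.06%, 1.05%, 0.992% and 1.07% of counts in antibiotics libraries 1, 2, 3 and 5, against 1.04%, 1.02%, 0.901%, 1.04% and 1.05% in control libraries 1 to 5. Control library 3 was the lowest, and the other 8 values lay between 0.992% and 1.07%. The ratio of mitochondrial to nuclear subunit counts, with near copies added, was 7.92 ± 1.18 (SD, n = 4) with antibiotics and 6.85 ± 1.47 (SD, n = 5) in controls, and was highest, at 9.24, in control library 3.

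**Figure D3:**
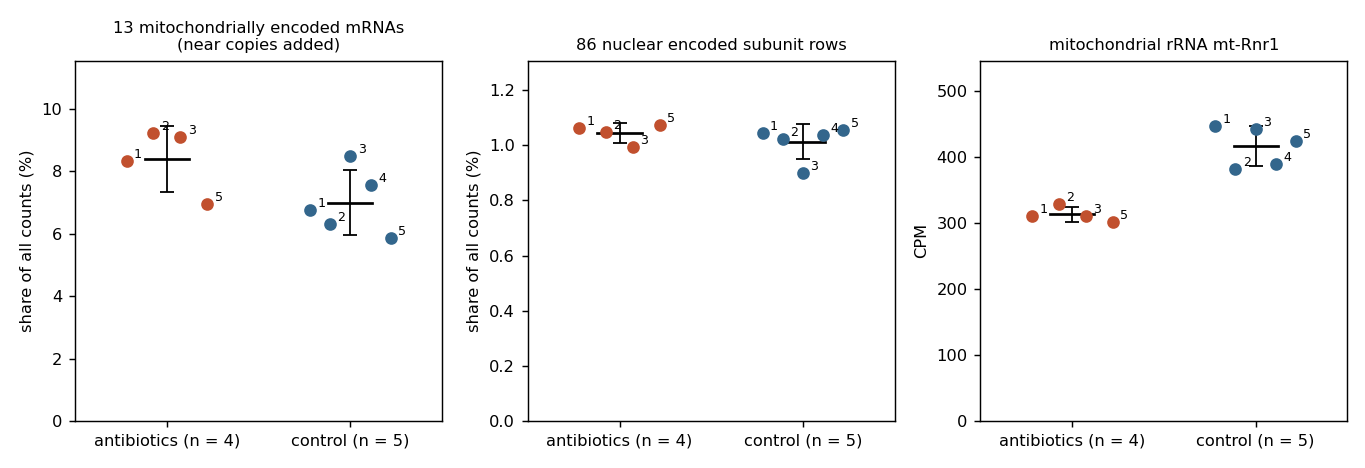
Share of all counts (%) in the 13 mitochondrial mRNAs with near copies and in the 86 nuclear subunit rows, and level (CPM) of the mitochondrial rRNA mt-Rnr1. Points are libraries with their replicate numbers, antibiotics left of control; lines are means and bars SD. Groups overlap in the first 2 panels and do not overlap for mt-Rnr1 (302 to 329 CPM against 382 to 448 CPM).

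Complex V had the highest mitochondrial median of the 4 complexes, but over only 2 genes, which overlap, and with a median SE of 0.22. mt-Atp8, a small membrane subunit of the ATP synthase, had 1023, 1356, 1229 and 665 CPM in antibiotics libraries 1, 2, 3 and 5, against 689, 611, 1041, 758 and 553 CPM in control libraries 1 to 5. Antibiotics libraries 1 to 3 were high together with control library 3 and the groups overlapped. The log2 fold change was 0.55 ± 0.22 (SE), with a 95% interval of 0.07 to 1.03 and an edgeR adjusted p of 0.207. mt-Atp6, which lines the proton channel and shares bases with the end of mt-Atp8, had 8174, 9444, 9536 and 6126 CPM with near copies in antibiotics livers, against 6028, 5412, 8331, 6547 and 5054 CPM in control livers. Its log2 fold change was 0.41 with near copies and 0.53 as deposited (edgeR adjusted p = 0.225).

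In complex IV, mt-Co1, mt-Co2 and mt-Co3 form the catalytic core that reduces oxygen. mt-Co1 was the most abundant member, with 27032, 29314, 29209 and 20825 CPM with near copies in antibiotics livers, against 23331, 23238, 25959, 23518 and 21164 CPM in control livers, and antibiotics library 5 was the lowest of all 9. mt-Co3 had 8569, 9208, 9609 and 6786 CPM with near copies in antibiotics livers, against 6484, 6033, 8354, 6909 and 6173 CPM in control livers. The 2 readings of the counts gave different sizes. As deposited, the log2 fold change was 0.60 for mt-Co3, 0.02 for mt-Co2 and 0.20 for mt-Co1; with near copies added it was 0.33 for mt-Co3, 0.22 for mt-Co2 and 0.18 for mt-Co1. The 3 genes were thus closer together once the division of reads was set aside.

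mt-Cytb, the cytochrome b of complex III, has no near copy in the annotation by the criteria used. It had 10188, 10889, 11069 and 8568 CPM in antibiotics livers, against 8472, 7756, 9645, 8543 and 6254 CPM in control livers. All antibiotics libraries lay above 4 of the 5 controls, and control library 3 lay among them. Its log2 fold change was 0.32 ± 0.14 (SE), with a 95% interval of 0.02 to 0.63 and an edgeR adjusted p of 0.250.

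The 7 mitochondrial subunits of complex I form the membrane arm that pumps protons. mt-Nd4, the most abundant of them by CPM, had 7254, 7958, 8196 and 5597 CPM in antibiotics livers, against 5556, 5342, 7407, 6008 and 4671 CPM in control livers. mt-Nd4l, mt-Nd4 and mt-Nd5 had log2 fold changes of 0.33, 0.32 and 0.34, and mt-Nd1 0.21. mt-Nd3 had 0.35 with near copies, against 0.12 as deposited. mt-Nd2 had 4364, 4755, 4803 and 3679 CPM in antibiotics livers, against 4184, 3910, 5376, 4153 and 3779 CPM in control livers, a log2 fold change of 0.04 (95% interval -0.25 to 0.33).

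mt-Nd6 is the single mRNA of the 13 that is read from the other strand, where its end overlaps that of mt-Nd5 by a few bases, and it is known to lack a poly(A) tail. It was also the least abundant, with 35.7, 52.5, 15.5 and 18.7 CPM in antibiotics livers, against 25.7, 18.4, 15.8, 11.7 and 25.5 CPM in control livers. Its log2 fold change of 0.65 ± 0.34 (SE) had a 95% interval of -0.10 to 1.39 and was 0.25 without antibiotics library 2. The libraries were strand-specific, but the sources used here do not state whether counting used the strand. Whether its counts include reads of the opposite strand therefore cannot be told.

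**Figure D4:**
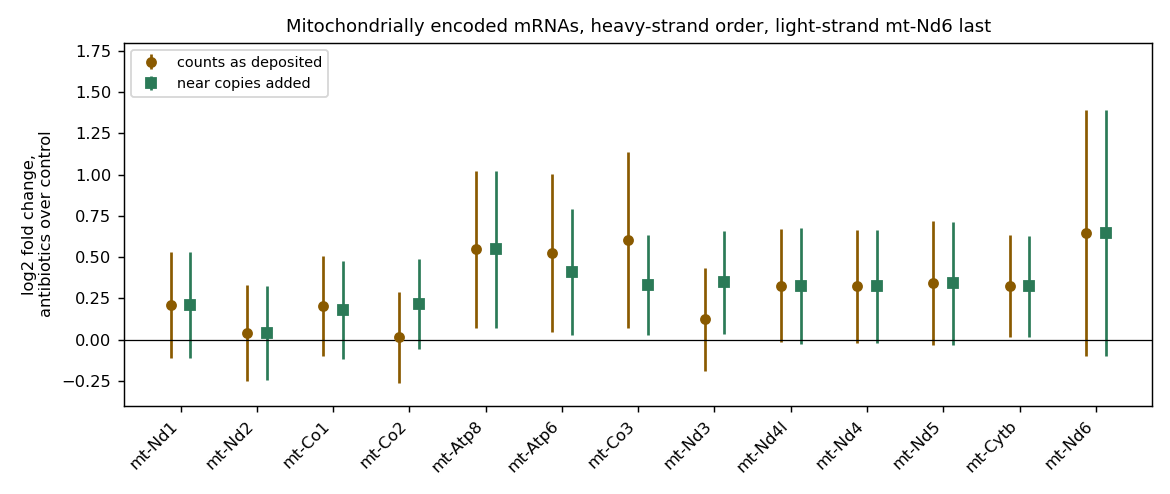
Log2 fold change (antibiotics over control) of the 13 mitochondrially encoded mRNAs with 95% intervals, from counts as deposited (circles) and with near copies added (squares), in gene order with the light-strand mt-Nd6 last. Adding near copies lowered mt-Co3 to 0.33 and raised mt-Co2 to 0.22; mt-Nd1, mt-Nd2 and mt-Cytb kept their values.

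Levels per length placed the mitochondrial mRNAs far above the nuclear ones. In CPM per kb of exon with near copies added, averaged over the 9 libraries, the median was 4317 for the 13 mitochondrial members (47.0 for mt-Nd6 to 16080 for mt-Co1) and 52.7 for the 80 nuclear members tested. In levels per kb as deposited, the highest nuclear members were Ndufa4 (146) in complex I, Sdhd (157) in II, Uqcr11 (149) in III, Cox6b1 (225) in IV and Atp5a1 (324) in V. The lowest were Ndufa4l2 (0.807) in complex I, Sdhc (43.6) in II, Uqcrc1 (51.3) in III, Cox7b2 (0) in IV and Atp5g2 (1.10) in V. Exon length here is that of all annotated exons of a gene, which makes genes with long or many annotated transcripts appear lower.

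**Figure D5:**
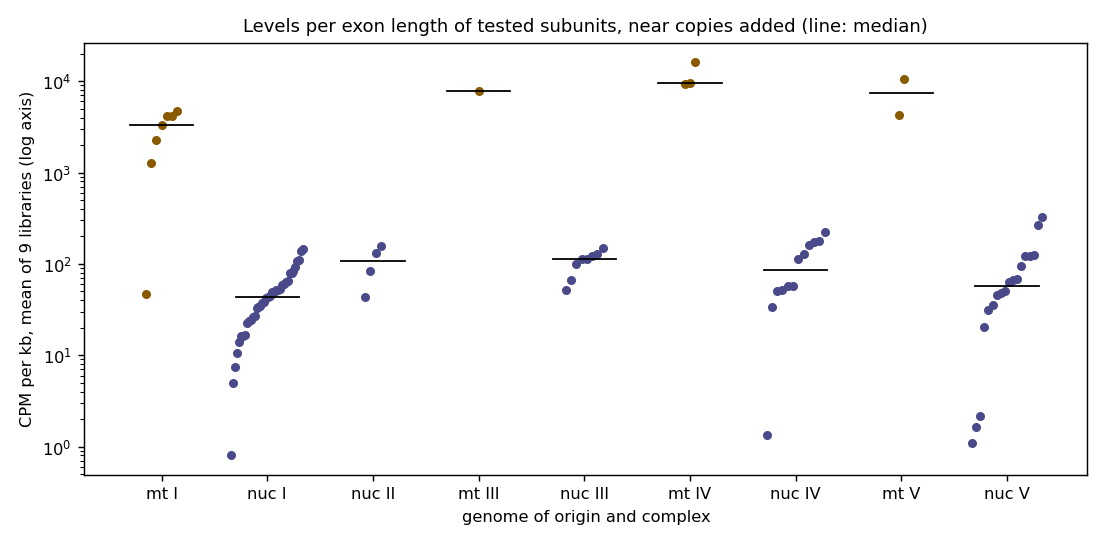
Mean level of each tested subunit over 9 libraries in CPM per kb of exon, near copies added, on a log axis, by genome of origin and complex; lines are medians. Mitochondrial members other than mt-Nd6 lie above 1000, and nuclear members reach at most 324.

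Nuclear core subunits differed little between the groups. Ndufs1, the largest iron-sulfur subunit of complex I, had 136, 141, 139 and 126.3 CPM in antibiotics livers, against 134, 124, 130, 133 and 122 CPM in control livers (log2 fold change 0.07, 95% interval -0.06 to 0.21). Sdha, the flavoprotein of complex II that oxidises succinate, had 535, 561, 559 and 509 CPM in antibiotics livers, against 574, 549, 510, 552 and 536 CPM in control livers (-0.01, interval -0.17 to 0.15). Uqcrc1, a core protein of complex III, had 230, 221, 201 and 217 CPM in antibiotics livers, against 212, 215, 180, 199 and 234 CPM in control livers (0.06, interval -0.12 to 0.25). The groups overlapped in each.

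Atp5b, the catalytic beta subunit of ATP synthase, had 1156, 1113, 1133 and 1134 CPM in antibiotics livers, against 1166, 1116, 1001, 1150 and 1214 CPM in control livers, a log2 fold change of 0.01. Atp5a1, the alpha subunit, had 1055, 1060, 1009 and 995 CPM in antibiotics livers, against 1036, 1026, 870, 1009 and 1069 CPM in control livers, a log2 fold change of 0.04. The 95% interval lay within ±0.5 on the log2 scale for 74 of the 80 nuclear members and for 3 of the 13 mitochondrial ones. The median SE was 0.08 for nuclear and 0.16 for mitochondrial members.

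Next are the nuclear members with the smallest p-values, from low to high. Atp5s, coupling factor B, an accessory protein of ATP synthase, had 3.46, 4.07, 4.64 and 3.78 CPM in antibiotics livers, against 2.22, 2.49, 3.31, 3.29 and 2.83 CPM in control livers. Every antibiotics library lay above every control, and the log2 fold change was 0.50 ± 0.16 (SE) with an edgeR adjusted p of 0.121. Ndufb6, an accessory subunit in the membrane arm of complex I, had 45.9, 45.7, 45.2 and 39.6 CPM in antibiotics livers, against 36.0, 36.9, 32.3, 38.6 and 41.6 CPM in control livers (log2 fold change 0.25, edgeR adjusted p = 0.143). Antibiotics library 5 lay below control library 5 and above the other controls.

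Atp5g2, after Ndufb6 in that order, had an estimate below 0. It is 1 of 3 genes for the same mature c subunit of the ATP synthase rotor ring and had 0.523, 1.67, 0.774 and 1.72 CPM in antibiotics livers, against 3.06, 2.89, 2.02, 1.52 and 2.35 CPM in control livers (log2 fold change -0.94 ± 0.33, SE, edgeR adjusted p = 0.158). Its sister genes were far more abundant: Atp5g3 had 292, 286, 263 and 269 CPM in antibiotics livers, against 256, 249, 233, 251 and 277 CPM in control livers (0.13). Atp5g1 had 95.5, 95.9, 95.6 and 97.7 CPM in antibiotics livers, against 99.5, 100, 80.2, 93.1 and 108 CPM in control livers, and kept 63.3% of the counts it shares with the pseudogene Gm10039.

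Next in order of p came Ndufc2, a membrane arm subunit of complex I (log2 fold change 0.22, edgeR adjusted p = 0.225). Sdhd, a membrane anchor of complex II, followed with 0.15 (edgeR adjusted p = 0.355), then Cox7a1 with -0.63, Uqcr11 with 0.17, Atp5g3 with 0.13, Atp5l with 0.11 and Cox6c with 0.11 (edgeR adjusted p = 0.364 to 0.444). Among the nuclear members with near copies, Ndufb4 kept 16.6% of the counts it shares with Ndufb4c and Atp5l 31.8% of those shared with its processed pseudogenes. Their log2 fold changes were 0.00 and 0.09 with copies added and -0.02 and 0.11 as deposited.

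Tissue isoforms followed the liver type. Several complex IV subunits exist as a widely expressed form and a form known from heart and skeletal muscle. Cox6a1 had 113 to 142 CPM in antibiotics livers and 99.2 to 151 CPM in control livers, whereas its muscle partner Cox6a2 had at most 4 counts in any library. Cox8a had 98.2 to 125 CPM in antibiotics livers and 80.6 to 106 CPM in control livers; Cox8b had 2 counts in control library 5 and 0 in the other 8. Cox7a2 had 117 to 125 CPM in antibiotics livers and 114 to 126.2 CPM in control livers, against 0.261 to 0.774 CPM and 0.399 to 1.06 CPM for Cox7a1 in the same groups.

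Cox7a2l, a relative of these isoforms, had 79.3 to 86.2 CPM in antibiotics livers and 65.5 to 89.1 CPM in control livers. Cox4i1 had 261 to 286 CPM in antibiotics livers and 230 to 301 CPM in control livers, and Cox4i2, known from lung, at most 3 counts. Cox6b1 had 160 to 162 CPM in antibiotics livers and 134 to 176 CPM in control livers, and Cox6b2, known from testis, at most 7 counts. The testis forms Cox7b2 and Cox8c had 0 counts in all 9 libraries, where a count of 0 allows up to 3 counts, or 0.0507 CPM in the deepest library and 0.195 CPM in the shallowest; this covers counting error only. Ndufa4, counted under complex I by its name although its protein is now placed in complex IV, had 199 to 206 CPM in antibiotics livers and 186 to 219 CPM in control livers, and its hypoxia-induced relative Ndufa4l2 0.892 to 1.13 CPM and 0.593 to 1.25 CPM.

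The difference between the genomes was tested on 1 pair of core subunits in each of 4 complexes, as a log2 ratio of counts within each library, which needs no scaling between libraries. The ratio of mt-Atp6 to Atp5b was 2.27, 2.87, 2.58 and 1.75 in antibiotics libraries 1, 2, 3 and 5, against 1.78, 1.71, 2.55, 1.88 and 1.44 in control libraries 1 to 5. The mean difference as deposited was 0.49 (exact two-sided permutation test, p = 0.143), with an SD between libraries of 0.48 with antibiotics and 0.41 in controls. It was 0.26 for mt-Cytb over Uqcrc1 (exact p = 0.246), 0.16 for mt-Co1 over Cox4i1 (exact p = 0.460) and 0.13 for mt-Nd1 over Ndufs1 (exact p = 0.302). All 4 differences were above 0, and none passed the test. With near copies added, the difference was 0.40 for mt-Atp6 over Atp5b (exact p = 0.127) and 0.14 for mt-Co1 over Cox4i1 (exact p = 0.468). Adjusted over the 4 pairs, the exact p-values were 0.402, 0.402, 0.460 and 0.402, and the smallest that splits of 9 libraries into 4 and 5 allow is 0.00794.

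The ribosomal RNAs of the mitochondrial genome were named after their values were seen. mt-Rnr1, of the small ribosomal subunit, had 311, 329, 312 and 302 CPM in antibiotics livers, against 448, 382, 443, 390 and 425 CPM in control livers. It fell, by 0.41 ± 0.08 (SE) on the log2 scale (edgeR adjusted p = 0.0239), with no overlap between the groups. The call was lost on leaving out antibiotics library 1, 3 or 5 or control library 1, with edgeR adjusted p-values of 0.0766, 0.0780, 0.0818 and 0.0529. mt-Rnr2 had 447, 501, 528 and 515 CPM in antibiotics livers, against 740, 649, 629, 580 and 579 CPM in control livers (log2 fold change -0.35, edgeR adjusted p = 0.0746, DESeq2 adjusted p = 0.00501, limma-voom adjusted p = 0.0626). With a library left out, mt-Rnr2 passed in 0 of 9 fits (edgeR adjusted p = 0.0637 to 0.196). The ratio of mitochondrial mRNA counts with near copies to rRNA counts was 111, 111, 111 and 81.0 in antibiotics livers, against 57.7, 63.3, 78.9, 73.9 and 60.4 in control livers. In poly(A)-selected libraries an rRNA is seen only as far as it escapes selection or carries a tail, and the part of the selection step in this difference was not tested.

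Genes that serve the respiratory chain were read from lists chosen with earlier results of these data known. Among all tested genes, edgeR called 2.68% (1.63% higher and 1.05% lower with antibiotics). Of 48 tested assembly factors, 1 was called: Coa6, which helps deliver copper to complex IV, rose to 15, 13.2, 8.51 and 11.1 CPM in antibiotics livers, against 6.79, 6.96, 7.51, 7.44 and 7.38 CPM in control livers (log2 fold change 0.72, edgeR adjusted p = 0.0266). Of 16 genes for ubiquinone synthesis and cytochrome c, 1 was called: Coq8a, an atypical kinase needed for ubiquinone synthesis, fell to 168, 188, 167 and 145 CPM in antibiotics livers, against 290, 251, 179, 273 and 236 CPM in control livers (-0.56, edgeR adjusted p = 0.0475). The groups overlapped through control library 3. The medians of the 2 lists were 0.07 and 0.07.

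Of 30 genes for transcription and handling of mitochondrial RNA, 3 rose and 0 fell, where 1.63% of all tested genes were called higher and 1.05% lower, with a list median of 0.12. Tefm, the elongation factor of mitochondrial RNA polymerase, had 10.4, 9.48, 10.2 and 8.74 CPM in antibiotics livers, against 6.12, 5.95, 7.21, 6.85 and 7.53 CPM in control livers (0.53, edgeR adjusted p = 0.0286). Mterf2, of the mitochondrial termination factor family, had 3.01, 2.62, 2.87 and 2.38 CPM in antibiotics livers, against 0.741, 1.08, 1.10, 1.81 and 0.734 CPM in control livers (1.29, edgeR adjusted p = 0.0324). Fastkd1, a mitochondrial RNA-binding protein, had a log2 fold change of 0.38 (edgeR adjusted p = 0.0474). For all 3 the groups did not overlap, as was so, in this direction, for 4.59% of all tested genes.

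These calls lay close to the threshold. Leaving out each of the 9 libraries in turn, the call of Coa6 was lost in 6 fits, that of Coq8a in 8, Tefm in 7, Mterf2 in 6 and Fastkd1 in all 9, with edgeR adjusted p-values of up to 0.0766, 0.138, 0.0882, 0.0866 and 0.135, and each kept its direction. All 5 calls were lost without antibiotics library 1, 2 or 5 and without control library 1 or 2.

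Of 29 markers of mitochondrial mass and matrix metabolism, none was called by edgeR, with 6 under an unadjusted p of 0.05 (5 higher and 1 lower), where 18.5% of all genes were under it, and a list median of 0.06. The smallest p-values were those of Tomm40, the import pore (log2 fold change 0.38, edgeR adjusted p = 0.0575), and Fh1, the fumarase of the citric acid cycle (0.29, edgeR adjusted p = 0.0661). The lower gene was Cs, citrate synthase (-0.32, edgeR adjusted p = 0.0932), named after its values were seen. Of 8 transcriptional regulators of respiratory genes, with a list median of -0.03, 1 was called, where 2.68% of all tested genes were called. Another 2, both lower, had an unadjusted p under 0.05. Esrra, the nuclear receptor ERR alpha, rose to 25.7, 26.6, 24.8 and 28.6 CPM in antibiotics livers, against 15.3, 17.1, 16.9, 17.2 and 21.3 CPM in control livers (0.60, edgeR adjusted p = 0.0140). That call was lost without antibiotics library 1 or 5 (edgeR adjusted p = 0.0509 and 0.0564). The lower 2 were the coactivator gene Ppargc1a (-0.59, edgeR adjusted p = 0.248) and Yy1 (-0.15, edgeR adjusted p = 0.191).

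Promoters of the nuclear members were searched for letters of 4 factors known to act on respiratory genes. RefSeq windows (GRCm38.p6, 250 bases upstream of the start) were found for 67 member genes in 72 windows, and both strands were read. The letters GCGCA, any base and GCGC, bound by NRF1, lay in 19.4% of member windows and 3.74% of the 32851 windows of all genes. CCGGAAG, of ETS factors such as GABPA, lay in 16.7% and 6.91%; TCAAGGTCA, of the ERR receptors, in 1.39% and 0.387%; and AAGATGGC, of YY1, in 1.39% and 1.57%. The median log2 fold change was -0.01 for the 13 tested members with the NRF1 letters, 0.06 for the 12 with the ETS letters and 0.02 for the 41 with none of the 4.

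The single window with the ERR letters belonged to Atp5g3, and it is shown because Esrra itself was called. The match, in capitals and on the opposite strand, begins 52 bases before the start, and the stretch (chr2:73911327-73911506, minus strand) overlaps no annotated gene.
Atp5g3: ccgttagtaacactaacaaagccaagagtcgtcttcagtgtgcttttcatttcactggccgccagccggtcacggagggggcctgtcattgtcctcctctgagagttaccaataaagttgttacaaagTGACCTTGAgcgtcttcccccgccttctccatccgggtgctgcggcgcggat
Atp5g3 did not pass the test (0.13 ± 0.07, SE, edgeR adjusted p = 0.367), and no binding was measured.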

How the data were processed

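Poly(A)-selected, strand-specific libraries were made from liver RNA extracted with Trizol and cleaned on columns, per the labels' protocols. As deposited, the table lists 1 estimated count per gene and library (an expected count, as a whole number), which the authors derived with Salmon on GRCm38, per the submitters' processing notes. The sources used here name no version, annotation release or strand setting. All 54393 gene IDs matched GENCODE M21.

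Counts were tested with edgeR 4.0.16 (quasi-likelihood F test, TMM, filterByExpr with a minimum of 10 counts and 15 in total, group only) in R 4.3.3, with Benjamini-Hochberg adjustment over 14873 genes and a threshold of 0.05. The procedure was tested on simulated data. CPM are scaled by TMM, and intervals are 95%. Near copies were same-orientation pseudogene transcripts with at least 95% identity over at least 150 nt (BLAST 2.17.0). The aligned stretch also had to cover a set minimum share of the copy or of the member's longest transcript.

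Named were the 13 mitochondrial mRNAs, the 10 nuclear members with the smallest p, fixed core subunits and isoform groups, and the highest and lowest nuclear member per complex; of the lists, genes past the threshold or else the 3 smallest p. 1 gene that this rule names is not reported here. The members and lists were chosen with earlier results of these data known.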

Additional observations from a re-analysis of the deposited data

Results flagged for a closer look

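Among 96 groups of 4 or 5 libraries examined, 5 held a library whose gap to its neighbours was large for the range of the group, where chance alone gives about 1 in 20. In antibiotics library 5, Ndufb6 had 39.6 CPM, below the 45.2 to 45.9 CPM of the other antibiotics libraries. In antibiotics library 1, Cox8a had 125 CPM, above the 98.2 to 99.8 CPM of the others in its group. In control library 3, mt-Nd2 had 5376 CPM, above the 3779 to 4184 CPM of the other controls, and nuclear subunits took 0.901% of all counts, below 1.02% to 1.05%. In control library 5, Ndufa4l2 had 1.25 CPM, above 0.593 to 0.771 CPM.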

How the results depend on the processing

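No member passed in any setting run (RLE or upper-quartile factors, scaling from nuclear genes, DESeq2, limma-voom, other filters, near copies added, each library left out, replicate block), and all 198 refitted medians stayed within 1 SD of the spread between libraries. Over all genes, 242 higher and 156 lower calls became 514 and 462 with DESeq2 and 115 and 54 with the replicate number as a block, and 28 to 276 and 8 to 191 with a library left out; the lowest counts came without antibiotics library 5 (28 and 8), library 1 (39 and 14) and library 3 (43 and 13). Correlations of same-numbered libraries 1, 2, 3 and 5 were 0.05, -0.02, 0.14 and 0.24; antibiotics libraries 3 and 5 but not 1 and 2 correlated best with their own number, so the numbers were not taken as pairs. Under the block the adjusted p was 0.0582 for mt-Rnr1, 0.0748 for Coa6, 0.0856 for Coq8a, 0.0788 for Tefm and 0.0533 for Fastkd1; Coq8a had 0.0531 with limma-voom and Fastkd1 0.0606 with no filter. Of 682 refits of 38 named members, 36 turned sign over 12 genes, none past the threshold; the cause was not tested. With a library left out, log2 fold changes ran from -0.0061 to 0.14 for mt-Nd2, -0.030 to 0.13 for mt-Co2, -0.019 to 0.076 for Cox4i1, -0.035 to 0.033 for Atp5b, -0.031 to 0.021 for Sdha, -0.0068 to 0.15 for Cox6a1, -0.027 to 0.067 for Cox6b1, -0.0015 to 0.035 for Cox7a2, -0.0067 to 0.10 for Cox7a2l, -0.0048 to 0.057 for Ndufa4, -0.060 to 0.045 for Atp5g1 and -0.0074 to 0.063 for Atp5a1. Other settings that turned a sign gave, for mt-Co2, -0.0050 with no filter and -0.017 under the block; for Atp5b, -0.012 with no filter; for Cox7a2, -0.0012 with no filter and -0.0018 under the block; for Sdha, 0.0051 with upper-quartile factors; and for Atp5g1, 0.013 with upper-quartile factors, 0.0060 with limma-voom, 0.0031 with the 1 CPM filter, 0.00070 with nuclear scaling and 0.035 with near copies. Antibiotics libraries 1 to 3 hold the fewest counts, which limits the precision of weakly expressed members.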
